A study of Homo sapiens with 10 samples.

Results

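Messenger RNA of 10 core circadian clock genes was described in U2OS cells, an established human osteosarcoma line. The genes were the activators CLOCK and BMAL1 (formerly ARNTL), the repressors PER1, PER2, PER3, CRY1 and CRY2, the nuclear receptors NR1D1 and NR1D2, and the output factor DBP. They were taken by their symbols, and each of the 10 matched 1 row among the 63187 genes of the count table. All 10 passed the filter on low counts that left 17290 genes for testing.

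RNA-seq covered 3 groups of 2 libraries each. The unheated control is labelled WT and NHS and was given a control reagent (shCtrl in the titles, siCtrl in the descriptions). The heated control carries the same labels apart from HS, for heat shock. The heated knockdown is labelled shYTHDC1 or siDC1 and HS, with the reagent aimed at YTHDC1, a nuclear protein that binds the methylated RNA base m6A. All groups share the U2OS background and the same culture medium, and no unheated knockdown group was measured, so an effect of the knockdown without heat cannot be told apart from one that needs heat. The sources used here do not give the temperature or length of heating, a recovery time, a step to synchronise the cells or the clock hour of harvest. The labels do not tell whether the 2 libraries of each group were grown as separate cultures, and each p-value therefore measures only the spread between libraries, which may be technical. In bulk RNA, a change in every cell and a change in the share of cells at a given clock phase cannot be told apart. The series also holds 4 samples of an RNA immunoprecipitation experiment, inputs as well as immunoprecipitates, which were not analysed here.

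The mammalian clock is a feedback loop of transcription. A dimer of CLOCK and BMAL1 binds E-box sequences and switches on the PER and CRY genes, whose proteins return to the nucleus and inhibit that dimer. The same dimer drives NR1D1 and NR1D2, which encode REV-ERB alpha and REV-ERB beta, and these bind ROR elements and repress BMAL1. DBP, also driven through E-boxes, binds D-box sequences in further clock genes. U2OS cells are widely used as a cell model of this loop, and changes of temperature are among the cues known to shift its phase.

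Promoter sequences are shown first, since elements of these kinds are the sites through which clock genes regulate each other. RefSeq promoters on GRCh38.p14, 250 bases before to 50 after each start, were found for 10 of 10 genes and 15 starts. The motifs searched, on both strands, were the E-box CACGTG, the weaker E-prime box CACGTT, the D-boxes TTATGTAA and TTACGTAA, the ROR element core AGGTCA, heat shock elements as GAANNTTC or TTCNNGAA, the cAMP elements TGACGTCA and TGACGCAA, the CCAAT box and the GC box GGGCGG. The windows below lie 5′ to 3′ on the strand of the gene, with the match in capitals and no match overlapping another one shown. A match on the opposite strand reads as the reverse complement, such as AACGTG for the E-prime box.
PER1 E-box, chr17:8152560-8152589, minus strand: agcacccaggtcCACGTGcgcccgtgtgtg
PER2 E-prime box, chr2:238288790-238288819, minus strand: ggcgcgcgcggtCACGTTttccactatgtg
PER3 D-box, chr1:7784103-7784132, plus strand: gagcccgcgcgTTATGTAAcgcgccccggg
CRY1 E-prime box, chr12:107093621-107093650, minus strand: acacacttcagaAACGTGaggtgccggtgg
CRY2 ROR element core, chr11:45847399-45847428, plus strand: ttgcggcgtcatAGGTCActgggcgggcta
CLOCK E-prime box, chr4:55546102-55546131, minus strand: tcaccactcgggCACGTTtggagcagcgcc
NR1D2 first E-box, chr3:23945954-23945983, plus strand: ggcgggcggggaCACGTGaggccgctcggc
NR1D2 second E-box, chr3:23946004-23946033, plus strand: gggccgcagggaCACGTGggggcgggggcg
NR1D1 had the largest fall of the 10 in the knockdown, and its 250 bases before the start are given whole, with the E-prime box in capitals.
NR1D1 promoter, chr17:40100590-40100839, minus strand: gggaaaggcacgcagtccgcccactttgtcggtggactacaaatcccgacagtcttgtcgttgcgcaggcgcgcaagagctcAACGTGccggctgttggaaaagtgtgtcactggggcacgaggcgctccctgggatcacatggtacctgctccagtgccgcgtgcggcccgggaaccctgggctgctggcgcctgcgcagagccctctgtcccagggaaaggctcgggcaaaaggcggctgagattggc

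The E-box was found in 2 of the 15 promoters, of PER1 and NR1D2, against 7.26% of all 35116 promoters of this length. The E-prime box was found in 5 of the 15, 1 each of CLOCK, PER2, CRY1, CRY2 and NR1D1, against 5.34% of promoters. A D-box was found in PER2, PER3 and NR1D2. The form TTATGTAA is held by 0.886% of promoters and TTACGTAA, which in PER2 spans the start, by 0.125%. The ROR element core was found in BMAL1, at position 32 of its second start (the start base counting as 1), in PER1 and at both CRY2 starts, 4 of the 15, against 13.8% of promoters. A heat shock element of the form TTCNNGAA, held by 7.74% of promoters, was found in 1 of the 15, of CRY2, at position 7 of its first start, and GAANNTTC and both cAMP elements were found in 0 of the 15, where 6.77%, 1.85% and 0.513% of promoters hold them. The GC box was present in 13 of the 15 and the CCAAT box in 11, against 45.0% and 34.6% of promoters. The PER3 windows overlap each other and share matches of both. Apart from the first starts of BMAL1 and CRY2, each window held more CG dinucleotides than at least 66.1% of promoters. The GC box, the E-box, the E-prime box, the D-box TTACGTAA and both cAMP elements each contain CG. All promoters are therefore an unlike background for them. DBP held none of the clock motifs in this window, which says nothing of sites farther away.

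**Figure D1:**
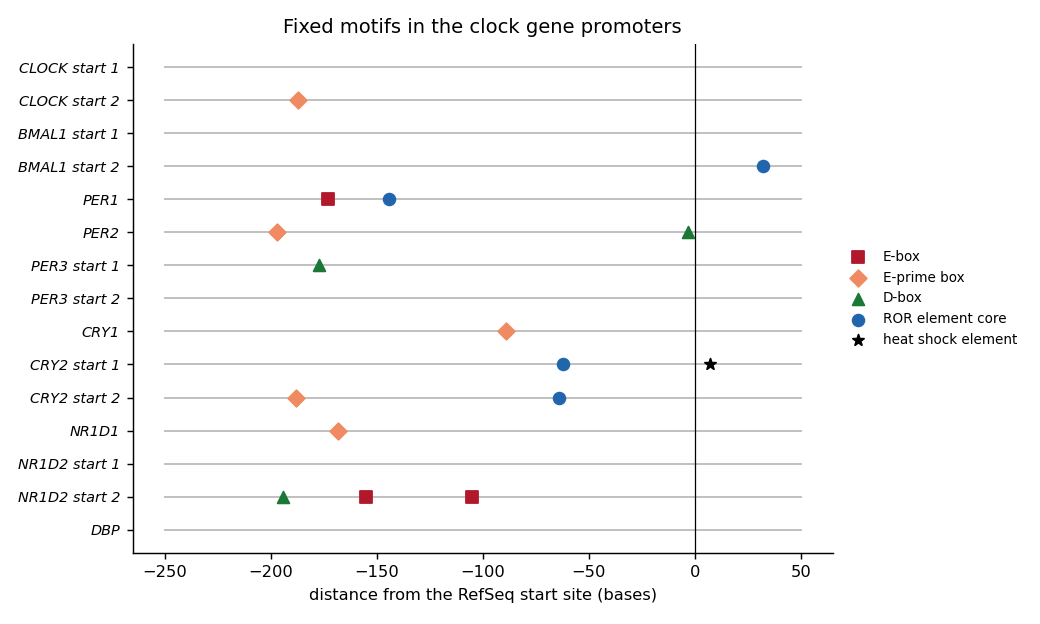
Positions of the searched clock and heat shock motifs in the 15 RefSeq promoters of the 10 clock genes, on an axis of bases from the start site; each symbol marks the first base of a match and each grey line the window searched. PER1 and the second NR1D2 start carry E-boxes, and CRY2 carries the heat shock element match, at position 7 of its first start.

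Total counts ran from 13252370 to 15500743 per library, and the 10 genes together took between 0.0340% and 0.0445% of them. Counts of the 10 genes per library ran from 75 for NR1D1 in a knockdown library to 1757 for CLOCK in an unheated one. YTHDC1 fell to 45.4% of the heated control level in the knockdown (log2 fold change -1.14 ± 0.05 SE, edgeR adjusted p = 2.66e-15), in 2 of 2 libraries. YTHDC1 itself rose with heat in controls (0.27 ± 0.05, edgeR adjusted p = 4.44e-05). Against unheated controls the knockdown was at 54.6% (-0.87 ± 0.05, edgeR adjusted p = 1.42e-13). Checked against the line, 9 mesenchymal markers summed to between 5525 and 6372 CPM (counts per library size after TMM scaling). TWIST1 was at 0 in every library, and COL1A2 was at 0.692 CPM or less in controls and at 2.25 and 2.23 CPM in the knockdown. VIM was at 1593 and 1589 CPM in heated controls and 1161 and 1129 CPM in the knockdown, and CDH2 at 157 and 166, then 309 and 283 CPM. Of 6 blood markers 3 were at 0 in every library, CD3E and HBB among them. Their sum was 0.568 and 0.514 CPM without heat, 1.77 and 6.88 CPM in heated controls and 1.20 and 2.44 CPM in the knockdown, with HBA2 at 6.31 CPM in heated control replicate 2. The sum of 3 endothelial markers ran from 3.08 to 5.36 CPM. The summed level of 5 epithelial markers was 9.96 to 12.9 CPM in both control groups and 36.4 to 38.5 CPM in the knockdown. The part of these marker differences in the results below was not tested.

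With heat shock in control cells 3 clock genes rose, 3 fell and 4 were not called (a call is an edgeR quasi-likelihood adjusted p under 0.05, with Benjamini-Hochberg adjustment over all 17290 genes). The genes that rose were DBP, 1.54-fold, BMAL1, 1.47-fold, and CRY1, to 117% of the unheated level. PER1 fell 1.72-fold, PER3 1.45-fold and CRY2 1.20-fold. Over all genes tested 43.9% were called, 20.6% higher and 23.3% lower, so that calls in both directions are common here. The median log2 fold change was -0.04 over the 10 genes and -0.03 over all genes. With library size alone as the scaling, 2 clock genes were called higher and 5 lower, since PER2 and NR1D2 were then called and CRY1 was not. Over all genes that scaling gave 36.5% of the called genes higher, against 46.9% with TMM.

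In the knockdown, compared with heated controls, 5 clock genes fell, 2 rose and 3 were not called. NR1D1 fell 3.48-fold, NR1D2 2.16-fold, DBP 1.56-fold, CLOCK 1.47-fold and PER3 1.22-fold. PER2 rose 1.54-fold and BMAL1 1.43-fold. Over all genes 54.5% were called, 27.4% higher and 27.2% lower. Both REV-ERB genes were among the genes that fell by at least 2-fold, which 6.59% of tested genes did. The median log2 fold change was -0.20 over the 10 genes and -0.0042 over all genes.

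Between the heated knockdown and unheated controls, 9 of the 10 genes were called, 3 higher and 6 lower, where 62.2% of all genes were called, 31.1% higher and 31.1% lower. BMAL1 was 2.10-fold higher, PER2 1.33-fold and CRY1 1.29-fold. NR1D1 was 3.01-fold lower, NR1D2 2.36-fold, PER1 1.86-fold, PER3 1.77-fold, CLOCK 1.42-fold and CRY2 1.22-fold. The median log2 fold change was -0.40 over the 10 genes and -0.0043 over all genes. DBP was the gene not called. The 3 comparisons share libraries, so each pair of them is not independent, and their values are given side by side for each gene.

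**Figure D2:**
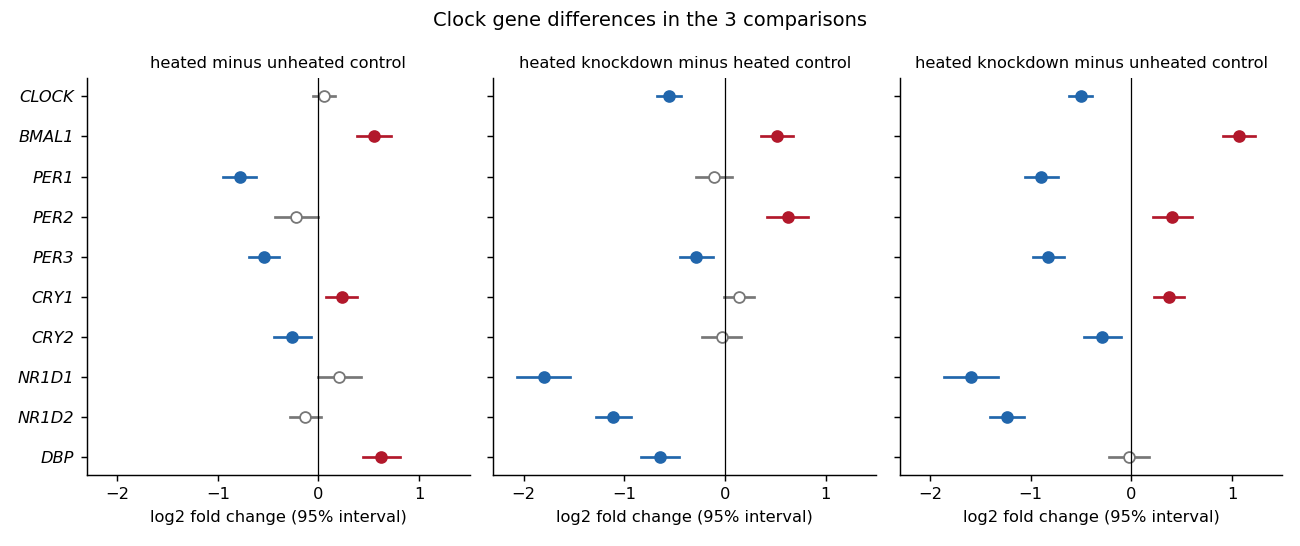
Log2 fold changes of the 10 clock genes (points) with 95% intervals (lines) in the 3 comparisons, on a log2 axis; filled red points were called higher, filled blue points lower, and open grey points were not called. NR1D1 and NR1D2 lie farthest to the left in both knockdown panels, at -1.80 and -1.11 against heated controls, and PER1 lies farthest to the left in the heat panel, at -0.78.

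The 2 activators moved apart. BMAL1 (ENSG00000133794, chromosome 11, 13276652 to 13387266 on GRCh38) is the partner whose messenger RNA is usually the rhythmic one of the dimer. It stood at 29.1 and 24.6 CPM without heat, 40.7 and 38.3 CPM in heated controls and 57.8 and 55.2 CPM in the knockdown. Each step was upward, and no groups overlapped. Its log2 fold change was 0.55 ± 0.08 SE with heat (edgeR adjusted p = 6.37e-06), 0.52 ± 0.08 in the knockdown against heated controls (2.95e-06) and 1.07 ± 0.08 against unheated controls (2.07e-11).

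CLOCK (ENSG00000134852, chromosome 4, 55427903 to 55546909), the partner with histone acetyltransferase activity, was at 111 and 111 CPM without heat, 117 and 113 CPM in heated controls and 82.7 and 73.7 CPM in the knockdown. Both knockdown libraries lay below all 4 control libraries. Its log2 fold change with heat was 0.05, with a 95% interval of -0.06 to 0.17 (edgeR adjusted p = 0.448), and its sign turned with library size alone (-0.016). In the knockdown it fell by 0.56 ± 0.06 on the log2 scale (adjusted p = 1.28e-08). CLOCK overlaps TMEM165 by 25495 bases on the opposite strand. This is the overlap of whole gene spans, introns included, while the deposited exon length of CLOCK is 11533 bases. The strand setting of the counting is not given, so reads of exons in the shared stretch cannot be told apart. TMEM165 was at a log2 fold change of -0.16 in the knockdown (edgeR adjusted p = 0.0446), a call lost in 8 of 13 alternatives. It was at -0.10 with heat (edgeR adjusted p = 0.234) and at -0.26 in the knockdown against unheated controls (0.00136).

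Per length of annotated exons, the BMAL1 level relative to CLOCK was 0.437 and 0.369 in unheated controls. The ratio was 0.578 and 0.562 in heated controls and 1.16 and 1.25 in the knockdown. Per length, BMAL1 was therefore below CLOCK in all 4 control libraries and above it in both knockdown libraries. In CPM, CLOCK stayed above BMAL1 in every library, at 82.7 and 73.7 against 57.8 and 55.2 CPM in the knockdown. The crossing thus rests on the deposited lengths, while the change of the ratio between groups does not. With 2 libraries against 2, an exact permutation test of this ratio cannot reach 0.05, and none was run.

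Among the PER genes, which encode the repressors that limit CLOCK and BMAL1 activity, PER1 and PER3 fell with heat, and PER2 rose in the knockdown. PER1 (ENSG00000179094, chromosome 17, 8140472 to 8152404), an immediate responder to many signals, stood at 43.7 and 43.3 CPM without heat, 25.8 and 24.7 CPM in heated controls and 22.7 and 24.1 CPM in the knockdown. All 4 heated libraries lay below both unheated ones. PER1 had the largest heat response of the 10 genes (log2 fold change -0.78 ± 0.08, edgeR adjusted p = 1.18e-08), and 7.17% of tested genes had a lower value. Against heated controls the knockdown value was -0.11, with a 95% interval of -0.29 to 0.07 (adjusted p = 0.286).

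PER3 (ENSG00000049246, chromosome 1, 7784291 to 7845177), a PER family member with a smaller part in the core loop, was at 80.0 and 84.0 CPM without heat, 53.0 and 59.7 CPM in heated controls and 42.1 and 50.4 CPM in the knockdown. No groups overlapped, and the lower heated control library lay close above the higher knockdown library. PER3 fell with heat (log2 fold change -0.54 ± 0.07, edgeR adjusted p = 1.85e-06). The further fall in the knockdown, by 0.29 ± 0.08 on the log2 scale (adjusted p = 0.00373), rested on single libraries. The call was lost without heated control replicate 2 (edgeR adjusted p = 0.0674) or knockdown replicate 1 (0.0648).

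PER2 (ENSG00000132326, chromosome 2, 238244044 to 238300065), a repressor that has itself been studied as a heat-responsive clock gene, rose in the knockdown. It stood at 22.6 and 19.5 CPM without heat, 17.2 and 19.0 CPM in heated controls and 27.0 and 28.8 CPM in the knockdown. Both knockdown libraries lay above all 4 controls. The log2 fold change was 0.63 ± 0.10 against heated controls (edgeR adjusted p = 9.47e-06) and 0.41 ± 0.09 against unheated ones (0.000637). With heat in controls it was -0.22, with a 95% interval of -0.43 to -0.01 before adjustment and an adjusted p of 0.0856 by edgeR. It was called lower under scaling by library size (-0.29, edgeR adjusted p = 0.022) and when unheated replicate 2 was left out (-0.33, 0.0401).

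The CRY genes, which encode the strongest inhibitors of the CLOCK and BMAL1 dimer, had smaller fold changes with heat than the other called genes and went opposite ways. CRY1 (ENSG00000008405, chromosome 12, 106991364 to 107093549) was at 34.1 and 35.9 CPM without heat, 41.5 and 40.6 CPM in heated controls and 47.2 and 43.3 CPM in the knockdown. CRY2 (ENSG00000121671, chromosome 11, 45847118 to 45883244) was at 26.1 and 27.8, then 21.5 and 23.4, then 21.2 and 22.8 CPM in the same groups. CRY1 was thus lowest, and CRY2 highest, in the unheated libraries. With heat the log2 fold change was 0.23 ± 0.07 for CRY1 (edgeR adjusted p = 0.013) and -0.26 ± 0.09 for CRY2 (0.0208).

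Both heat calls of the CRY genes were fragile. By the DESeq2 Wald test neither passed (adjusted p = 0.127 for CRY1 and 0.218 for CRY2). The CRY1 call was also lost with library size alone (edgeR adjusted p = 0.0781) and without unheated replicate 1 (0.135) or heated control replicate 1 (0.0752). The CRY2 call was lost without unheated replicate 2 (edgeR adjusted p = 0.146) or heated control replicate 1 (0.156). In the knockdown against heated controls, CRY1 was at 0.14, with a 95% interval of -0.0089 to 0.29 (edgeR adjusted p = 0.105). It was called without knockdown replicate 2 (0.20, adjusted p = 0.0349). CRY2 was at -0.03, with an interval of -0.22 to 0.16 (adjusted p = 0.806), and its knockdown and heated control libraries overlapped. Against unheated controls the knockdown was higher for CRY1 (0.37 ± 0.07, edgeR adjusted p = 9.44e-05) and lower for CRY2 (-0.29 ± 0.09, 0.00666), the latter not called by DESeq2 (0.109) or without unheated replicate 2 (0.0634).

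The REV-ERB genes gave the largest differences of the 10 in the knockdown. NR1D1 (ENSG00000126368, chromosome 17, 40092793 to 40100589), which encodes REV-ERB alpha, a haem-binding repressor of BMAL1, stood at 17.5 and 17.9 CPM without heat and 21.0 and 20.0 CPM in heated controls. In the knockdown it stood at 5.28 and 6.47 CPM, from 75 and 93 counts against 273 and 279 in heated controls. The knockdown libraries lay far below all 4 controls. NR1D1 kept 28.7% of the heated control level (log2 fold change -1.80 ± 0.13, edgeR adjusted p = 2.53e-11), and 1.86% of tested genes had a lower value. With heat alone it was at 0.21, with a 95% interval of -0.0081 to 0.43 (adjusted p = 0.113). It was called in a fit of only the unheated and heated controls (0.24, adjusted p = 0.0409).

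NR1D2 (ENSG00000174738, chromosome 3, 23945286 to 23980617), which encodes the related repressor REV-ERB beta, was at 45.7 and 48.2 CPM without heat, 45.5 and 40.4 CPM in heated controls and 20.4 and 19.4 CPM in the knockdown. Again both knockdown libraries lay below all 4 controls. It kept 46.4% of the heated control level (log2 fold change -1.11 ± 0.08, edgeR adjusted p = 8.28e-11). With heat it was at -0.13, with a 95% interval of -0.28 to 0.02 (adjusted p = 0.162), and scaling by library size called it lower (-0.20, adjusted p = 0.03).

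Both REV-ERB genes overlap a gene on the opposite strand, so reads of exons in the shared stretch cannot be told apart. The overlaps are again those of whole gene spans, introns included. NR1D1 shares 1075 bases with THRA, a thyroid hormone receptor gene, which also fell in the knockdown, from a mean of 48.3 ± 0.792 CPM to one of 26.5 ± 2.02 CPM (SD, n = 2; -0.86 ± 0.08, edgeR adjusted p = 1.03e-09). NR1D2 shares 1277 bases with NKIRAS1, an inhibitor of NF-kB signalling, which fell from 24.7 ± 1.65 to 14.8 ± 2.75 CPM (-0.74 ± 0.11, edgeR adjusted p = 6.42e-06). With heat NKIRAS1 rose (0.67 ± 0.11, edgeR adjusted p = 2.78e-05), where NR1D2 was at -0.13, and in the knockdown against unheated controls it was at -0.07 (0.612), where NR1D2 was at -1.24. THRA was at 0.06 with heat (edgeR adjusted p = 0.525) and at -0.81 in the knockdown against unheated controls (1.75e-09). How far shared reads enter these values was not tested.

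DBP (ENSG00000105516, chromosome 19, 48630030 to 48637379), a PAR bZIP factor that passes the rhythm to output genes, rose with heat and was lower in the heated knockdown than in heated controls. It stood at 18.5 and 19.3 CPM without heat, 29.7 and 28.7 CPM in heated controls and 18.2 and 19.1 CPM in the knockdown. Both heated controls lay above the other 4 libraries, which overlapped. The log2 fold change was 0.62 ± 0.09 with heat (edgeR adjusted p = 3.48e-06) and -0.65 ± 0.09 in the knockdown against heated controls (1.79e-06). Against unheated controls the knockdown was at -0.02, with a 95% interval of -0.22 to 0.17 (adjusted p = 0.85). DBP shares 376 bases of its gene span with SPHK2, a sphingosine kinase gene on the opposite strand. SPHK2 rose with heat (0.83 ± 0.11, edgeR adjusted p = 1.64e-06) and was at 0.18 in the knockdown against heated controls (0.147). Against unheated controls SPHK2 was at 1.01 in the knockdown (edgeR adjusted p = 2.31e-08).

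**Figure D3:**
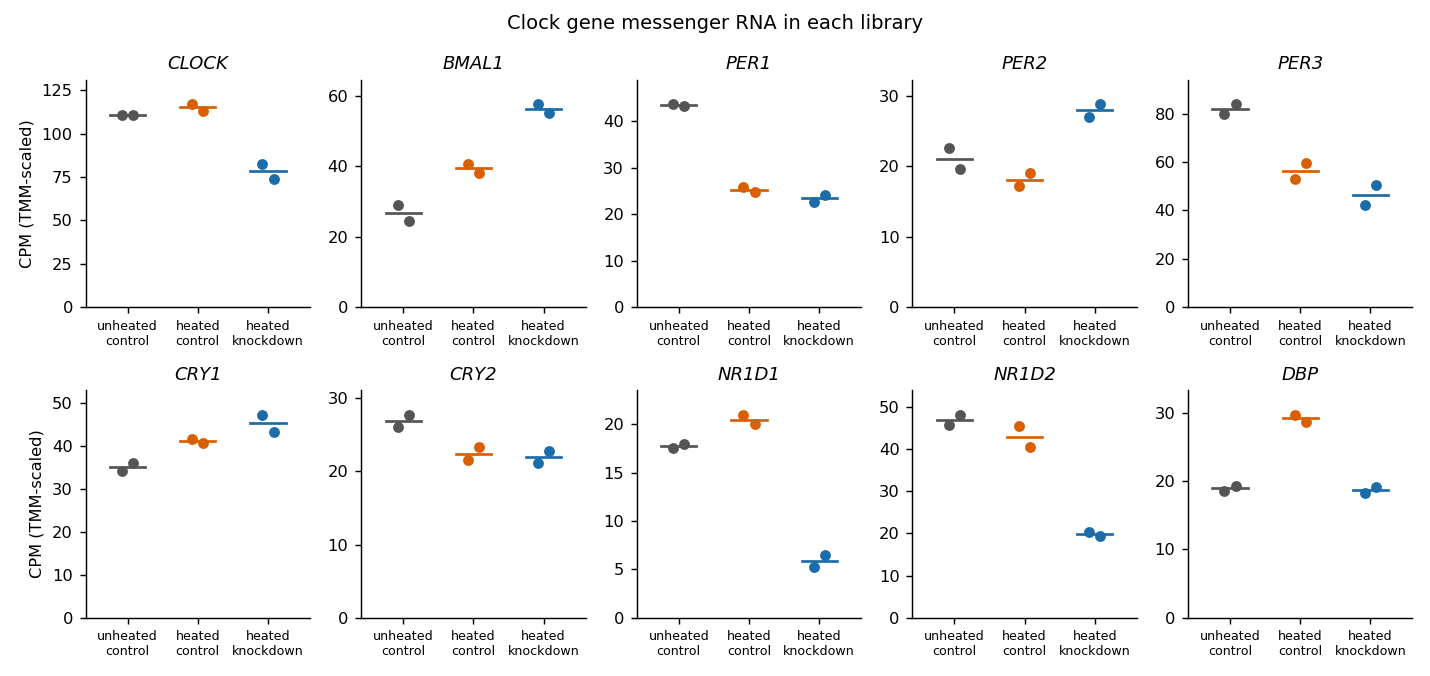
Level of each clock gene in CPM (vertical axis, starting at 0) in the 2 libraries of each group (points) with the group mean (line). BMAL1 climbs over the 3 groups, NR1D1 and NR1D2 are lowest in the 2 knockdown libraries, and DBP is highest in the 2 heated control libraries, at 29.7 and 28.7 CPM.

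Levels of different genes were set against each other only per kilobase of the deposited gene length (RPKM, from the TMM-scaled counts), which spans all annotated exons and so understates genes with many unused exons. In unheated controls the order was PER3 (10.1), CLOCK (9.61), NR1D2 (8.11), CRY1 (7.32), NR1D1 (6.74), PER1 (6.21), CRY2 (4.34), BMAL1 (3.88), PER2 (2.97) and DBP (2.92 RPKM). Neighbours in that order differed in their means by more than the wider of their library ranges except PER3 and CLOCK, CRY2 and BMAL1, and PER2 and DBP, and the libraries of PER2 and DBP overlapped. In heated controls CLOCK (9.98 RPKM) and CRY1 (8.59 RPKM) led and PER2 (2.55 RPKM) was last. There NR1D1 and NR1D2, NR1D2 and PER3, and CRY2 and PER1 did not differ by more than that range. In the knockdown CRY1 (9.46 RPKM) and BMAL1 (8.15 RPKM) led, and NR1D1 (2.23 RPKM) was last. There CRY2 (3.55 RPKM) and NR1D2 (3.44 RPKM) did not differ by more than that range, nor did NR1D2 and PER1 (3.34 RPKM). BMAL1 thus moved from rank 8 to rank 2 and NR1D1 from rank 5 to rank 10 between unheated controls and the knockdown.

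The wider clock network was read from 4 lists of 64 genes in all, of which 62 were tested. USP2, a deubiquitinase, did not pass the filter. With heat 21 of the 62 rose and 21 fell, beside the 20.6% and 23.3% of all genes above. In the knockdown 20 rose and 28 fell, beside 27.4% and 27.2%. By the DESeq2 Wald test 14 rose and 18 fell there, where 3217 and 3270 of all genes did, against 4729 and 4696 by edgeR. In the knockdown against unheated controls 22 rose and 22 fell, beside 31.1% each way.

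The transcription arm held partners and relatives of the 10 genes. With heat 3 of 12 rose and 4 fell, with a median log2 fold change of -0.19, and in the knockdown 3 rose and 5 fell, with a median of 0.0017. Of all genes tested, 20.6% rose and 23.3% fell with heat, and 27.4% and 27.2% in the knockdown. BHLHE41, a repressor that competes at E-boxes, fell with heat from 46.0 and 53.6 CPM to 17.9 and 15.5 CPM (-1.58 ± 0.09, edgeR adjusted p = 1.29e-12). NFIL3, a repressor at D-boxes, rose from 13.2 and 14.0 CPM to 27.4 and 24.2 CPM (0.92 ± 0.10, adjusted p = 5.71e-08). BMAL2, a paralog of BMAL1, fell in the knockdown from 47.3 and 41.2 CPM to 12.5 and 13.6 CPM (-1.76 ± 0.09, adjusted p = 1.07e-13), against the rise of BMAL1. TEF, a D-box activator of the same family as DBP, was picked after its values were seen. It fell in the knockdown from 26.0 and 26.2 CPM to 10.3 and 13.6 CPM (-1.13 ± 0.11, adjusted p = 6.21e-09).

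RORA and RORB, receptors that compete with REV-ERB proteins for ROR elements as activators, rose in the knockdown. RORA went from 10.6 and 10.9 CPM to 14.8 and 15.7 CPM (0.50 ± 0.12, edgeR adjusted p = 0.000942), and RORB was at 2.66 ± 0.474 CPM after 0.894 ± 0.149 CPM (SD, n = 2, adjusted p = 0.00291). CIART, a repressor of the dimer, and HLF, the third member of the DBP family, were near the detection limit. CIART was at 0.825 CPM without heat, 1.82 CPM in heated controls and 0.805 CPM in the knockdown, and HLF was at 0.893, 0.297 and 0.664 CPM. Their heat calls (edgeR adjusted p = 0.0169 and 0.0248) were lost by DESeq2 (0.203 and 0.23), without unheated replicate 2 (0.202 and 0.232) and without heated control replicate 1 (0.116 and 0.101). The HLF call was also lost without heated control replicate 2 (0.13). The knockdown call of CIART (edgeR adjusted p = 0.0128) was lost by DESeq2 (0.158), without heated control replicate 1 (0.0886) and without knockdown replicate 2 (0.0568). In the transcription arm the count of falls with heat went from 4 to 2 without heated control replicate 2, and that in the knockdown from 5 to 3 without heated control replicate 1. By DESeq2 1 gene rose and 2 fell with heat, and 3 fell in the knockdown.

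Kinases, phosphatases and ubiquitin factors set the lifetime of clock proteins. With heat 7 of 22 rose and 8 fell (median 0.04), and in the knockdown 6 rose and 11 fell (median -0.11). The shares over all genes were 20.6% and 23.3% with heat, and 27.4% and 27.2% in the knockdown. SIAH2, a ubiquitin ligase for REV-ERB alpha, rose with heat (1.31 ± 0.07, edgeR adjusted p = 1.47e-13), and PRKAA2, a catalytic subunit of AMP kinase, rose as well (0.52 ± 0.11, 0.000523). PPP1CB, a catalytic subunit of protein phosphatase, and PRKAA1, the alternative catalytic subunit of AMP kinase, fell with heat by 0.37 and 0.33 on the log2 scale. In the knockdown PRKAA1 (0.59) and PRKAA2 (0.39) rose. CSNK2B, the regulatory subunit of casein kinase 2, and FBXW11, a ubiquitin ligase subunit that recognises PER proteins, fell by 0.79 and 0.76. CSNK2B was low, at 8.54 and 7.45 CPM in heated controls and 4.71 and 4.52 CPM in the knockdown. CSNK2A1, a catalytic subunit of the same kinase, was at a mean of 202 CPM in heated controls. Whether the CSNK2B row holds all reads of that gene was not tested. The PRKAA2 call in the knockdown was lost by DESeq2 (adjusted p = 0.0724). The count of falls with heat went from 8 to 5 without unheated replicate 1, without unheated replicate 2 or without heated control replicate 1. By DESeq2 4 fell with heat and 3 rose in the knockdown.

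Chromatin factors and coregulators moved both ways. With heat 7 of 17 rose and 7 fell (median 0.09), and in the knockdown 7 rose and 8 fell (median -0.08). The shares over all genes were 20.6% and 23.3% with heat, and 27.4% and 27.2% in the knockdown. KDM5A, a histone demethylase that acts with the dimer, rose with heat (0.86 ± 0.05, edgeR adjusted p = 4.8e-13), as did the acetyltransferase CREBBP (0.46), while CRTC1, a CREB coactivator, fell by 0.55 and the helicase DDX5 by 0.34. PPARGC1A, a coactivator of ROR receptors, rose in the knockdown from 1.54 and 1.08 CPM to 5.98 and 7.03 CPM (log2 fold change 2.32 ± 0.25, edgeR adjusted p = 3.53e-08). SIRT1, a deacetylase of clock proteins, rose by 0.41, and HDAC3, the deacetylase recruited by REV-ERB proteins, fell by 0.56 (edgeR adjusted p = 1.63e-07). CRTC1 fell by 0.32 in the knockdown, a call lost by DESeq2 (0.19), without heated control replicate 2 (0.287) and without knockdown replicate 1 (0.135). The count of rises with heat went from 7 to 4 without unheated replicate 2, and the count of falls in the knockdown from 8 to 4 without heated control replicate 1. With library size alone 4 rose with heat, and by DESeq2 4 fell in the knockdown.

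Among 11 output genes, which the clock is known to drive in other tissues, 4 rose and 2 fell with heat (median 0.09), and 4 rose and 4 fell in the knockdown (median 0.06). Of all genes tested, 20.6% rose and 23.3% fell with heat, and 27.4% and 27.2% in the knockdown. The falls with heat numbered 1 by DESeq2 and also without any 1 of the 4 control libraries. NOCT, a rhythmic phosphatase, rose with heat from 22.8 and 21.3 CPM to 47.7 and 49.7 CPM (1.14 ± 0.08, edgeR adjusted p = 1.02e-11). TSC22D3, a rhythmic transcription regulator, rose by 1.30, and CDKN1A, a cell cycle inhibitor repressed by REV-ERB alpha, fell by 1.18. WEE1, a mitotic kinase with E-boxes, fell with heat by 0.20 (edgeR adjusted p = 0.0163), a call lost by DESeq2 (0.157) and without any 1 of the 4 control libraries (0.0542 to 0.0763). In the knockdown WEE1 rose from 52.8 and 53.3 CPM to 77.6 and 86.3 CPM (0.63 ± 0.06, edgeR adjusted p = 8.8e-09) and CDKN1A rose by 0.37. MAOA, a monoamine oxidase, fell by 0.45.

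Against unheated controls, the heated knockdown held high values of these lists at PPARGC1A (2.46), NOCT (1.44), TSC22D3 (1.16), SIAH2 (1.02), PRKAA2 (0.91), NFIL3 (0.82) and KDM5A (0.73) among rises on the log2 scale. RORB was at 1.02 (edgeR adjusted p = 0.0211), a call lost by DESeq2 (0.175), without unheated replicate 2 (0.38, adjusted p = 0.365) and without knockdown replicate 2 (0.0916). Among falls were BHLHE41 (-1.88), BMAL2 (-1.77), CRTC1 (-0.87), CDKN1A (-0.80), HDAC3 (-0.70) and PPP1CB (-0.63). CSNK2B was at -0.49 (edgeR adjusted p = 0.0143), a call lost by DESeq2 (0.169), without unheated replicate 2 (0.0756) and without knockdown replicate 2 (0.0577).

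**Figure D4:**
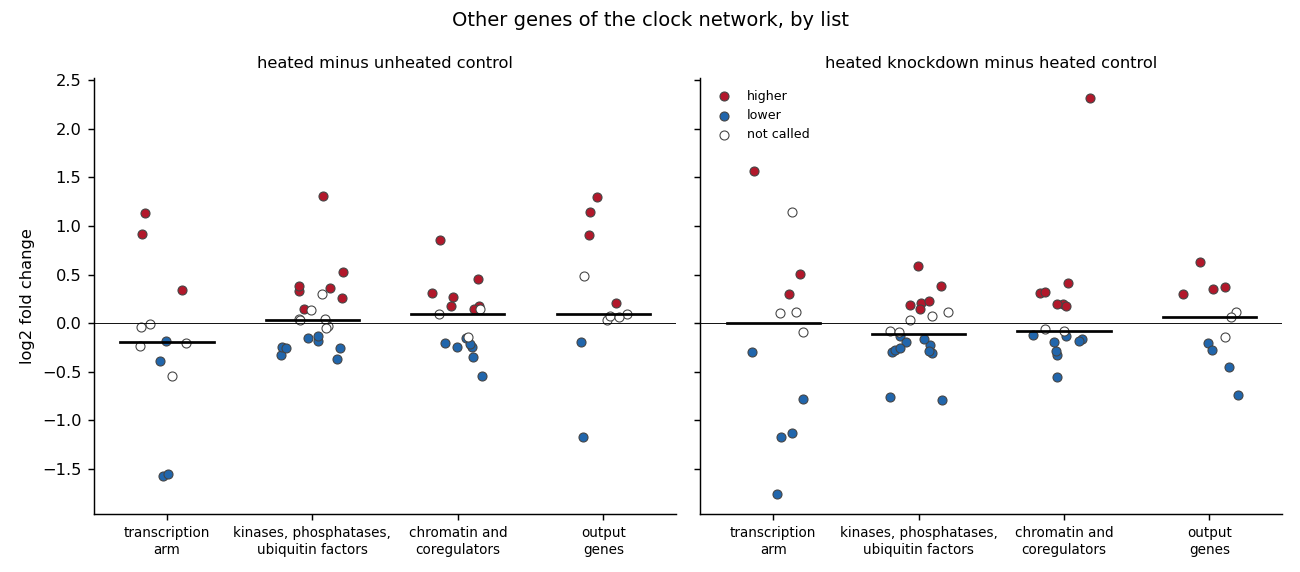
Log2 fold changes of the tested genes of the 4 clock network lists with heat (left) and in the knockdown against heated controls (right); each point is a gene, red if called higher, blue if called lower and white if not called, and the black bar is the list median. The points spread to both sides of 0 in every list, with medians between -0.19 and 0.09 in both panels, and PPARGC1A is the highest point in the knockdown, at 2.32.

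BMAL1, PER3 and DBP were called both with heat and in the knockdown, and for each the 3 nearest profiles were sought among protein-coding genes with a mean level of 5 CPM or more. The measure was the Euclidean distance between mean-centred log2 CPM over the 3 group means, from 6 libraries. G2E3 (0.0139), PMVK (0.0227) and TPP1 (0.0235) were nearest to BMAL1. RFLNB (0.00225), ALKBH4 (0.00274) and MSH6 (0.00616) were nearest to PER3, and RAB2B (0.0234), C12orf76 (0.0271) and ZNF471 (0.0339) to DBP. Such profiles were common, since 245, 658 and 322 of 10715 candidate genes lay within a distance of 0.25 of BMAL1, PER3 and DBP.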

How the data were processed

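RNA-seq of 6 U2OS libraries was used. The authors deposited raw read counts, whole numbers for each gene, with a gene length per the file headers. Per the submitters' processing notes, reads were handled with HISAT2 2.2.1, featureCounts 2.0.2, SAMtools 1.17, Trim Galore 0.6.7, FastQC 0.11.8, MACS2, R 4.4.0 and DESeq2 1.36.0, named with GRCh38 and with no role or order. The sources used here do not give the annotation, the strand setting or how multi-mapping reads were treated. The deposited gene length (in bases, the other value of the table) served only to order levels.

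Here edgeR 4.0.16 in R 4.3.3 was run on all 6 libraries in 1 fit (TMM scaling, filterByExpr with a minimum count of 10, robust quasi-likelihood F test, 3 residual degrees of freedom, threshold 0.05). SE is the log2 fold change divided by the root of F. Alternatives were DESeq2 1.42.0, limma voom 3.58.1, library size alone, no filter, only the 2 groups compared, no robust estimation, a replicate block and leaving out each library. The test was checked on simulated counts. Named list genes are those with the 2 highest and 2 lowest log2 fold changes among the called, per list and comparison, and those not tested; a few that the rule names are not reported here. The members, lists and rules were chosen with earlier results of these data known. Symbols were paired with 62666 identifiers, and gene positions and promoters came from RefSeq on GRCh38.p14. Protein sequences were not used here, so a planned comparison of them was not run.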

Additional observations from a re-analysis of the deposited data

How the results depend on the processing

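Over 13 alternatives, the calls of BMAL1, PER1, PER3 and DBP with heat, of NR1D1, NR1D2, CLOCK, DBP, PER2 and BMAL1 in the knockdown, and of the called clock genes other than CRY2 against unheated controls kept their direction and stayed called. With library size alone 5 clock genes were called lower with heat, against 3, and CLOCK went to -0.016 and THRA to -0.011, neither called. By the DESeq2 Wald test 2362 of all genes were lower with heat, against 4033, and 18 network genes were lower in the knockdown, against 28. Of all genes, 3270 were lower in the knockdown by that test, against 4696. The cause was not tested. Leaving out 1 library, the log2 fold change of CRY2 in the knockdown ran from -0.089 to 0.022, turning positive without heated control replicate 2 and without knockdown replicate 1. Against unheated controls DBP ran from -0.060 to 0.0034 and NKIRAS1 from -0.28 to 0.098, both turning without knockdown replicate 1. None of these was called. Leaving out 1 library, the clock genes called ran from 2 to 3 higher and 2 to 3 lower with heat, from 2 to 3 higher and 4 to 5 lower in the knockdown, and stayed at 3 higher and 5 to 6 lower against unheated controls. Replicate numbers did not pair the libraries (correlations of deviations -0.03, 0.05 and -0.06). With the replicate block 3 clock genes were higher and 3 lower with heat, 2 and 5 in the knockdown, and 3 and 6 against unheated controls, so the block changed no such count. Low counts limit CIART, HLF, RORB and, in the knockdown, NR1D1, where counting error is largest among the 10. They also limit PPARGC1A in controls, at 1.14 and 1.22 CPM without heat and 1.54 and 1.08 CPM in heated controls.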
